A study of Mus musculus with 78 samples.

Results

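The genes described here are 32 genes of sterol and fatty acid synthesis, found by name among the 52459 named genes of a count table from engineered mouse cartilage. They comprise 18 enzymes of cholesterol synthesis, 6 regulators and sterol carriers, and 8 enzymes that make, lengthen or desaturate fatty acids. The rule takes the genes by name and uses no measured value, but the list was chosen with earlier results of these data known. The cartilage was grown in culture from induced pluripotent stem cells (iPSCs, cells reprogrammed to an embryonic-like state) of mouse. Pieces served as controls or received one of 2 inflammatory cytokines, IL-1beta (interleukin-1 beta) at 1 ng/mL or TNF-alpha (tumor necrosis factor alpha) at 20 ng/mL, and were collected at 4, 12, 24 or 72 h, with further controls at 0 h. The sources used here give neither the mouse strain nor the iPSC line and its number of clones. They also leave unsaid whether replicates a, b and c were grown apart, so p-values measure the spread between these libraries, which may be technical. The cytokines were given at different mass doses, so comparisons between them are comparisons of these 2 exposures.

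Cells make cholesterol from acetyl-CoA through mevalonate, squalene and lanosterol, and fatty acids from acetyl-CoA through malonyl-CoA. Both pathways are switched on by the transcription factors SREBP2 (gene Srebf2, chiefly sterol genes) and SREBP1 (gene Srebf1, chiefly fatty acid genes). These are held in the endoplasmic reticulum by SCAP and the INSIG proteins while sterols are plentiful, and are released when sterols run low. Oxysterols, which are oxidised forms of cholesterol, hold SREBP back through the INSIG proteins and activate the nuclear receptor LXR, of which Srebf1, the desaturase genes and the sterol exporter gene Abca1 are known targets. Chondrocytes, the cells of cartilage, both make cholesterol and export it.

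Promoter sequences are shown for the only member with a match to the sterol element letters given below. They are also shown for a sterol enzyme and a feedback regulator that fell most with IL-1beta at 72 h, and for the enzyme gene that rose in most comparisons. The windows run from 250 bases before to 50 bases after a RefSeq transcription start (build GRCm38.p6), 5′ to 3′ on the gene's strand, and capitals mark matches on either strand to the sterol regulatory element TCACNCCAC or to the NF-Y box CCAAT. The windows are chr13:119690101-119690400 on the plus strand for Hmgcs1, chr5:28071162-28071461 on the plus strand for Insig1, chr5:4104648-4104947 on the minus strand for Cyp51 and chr1:169969156-169969455 on the minus strand for Hsd17b7.
Hmgcs1: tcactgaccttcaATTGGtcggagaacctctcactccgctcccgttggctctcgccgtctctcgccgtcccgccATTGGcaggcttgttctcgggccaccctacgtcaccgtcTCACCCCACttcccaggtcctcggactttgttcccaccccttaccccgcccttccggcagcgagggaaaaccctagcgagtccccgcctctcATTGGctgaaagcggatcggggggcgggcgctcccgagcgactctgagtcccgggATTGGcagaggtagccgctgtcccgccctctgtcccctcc
Insig1: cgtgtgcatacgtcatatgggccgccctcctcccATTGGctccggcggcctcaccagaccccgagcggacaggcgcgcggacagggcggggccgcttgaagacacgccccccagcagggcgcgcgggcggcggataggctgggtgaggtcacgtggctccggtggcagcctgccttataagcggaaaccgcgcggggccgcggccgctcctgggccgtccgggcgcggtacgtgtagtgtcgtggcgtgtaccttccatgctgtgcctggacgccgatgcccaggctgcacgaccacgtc
Cyp51: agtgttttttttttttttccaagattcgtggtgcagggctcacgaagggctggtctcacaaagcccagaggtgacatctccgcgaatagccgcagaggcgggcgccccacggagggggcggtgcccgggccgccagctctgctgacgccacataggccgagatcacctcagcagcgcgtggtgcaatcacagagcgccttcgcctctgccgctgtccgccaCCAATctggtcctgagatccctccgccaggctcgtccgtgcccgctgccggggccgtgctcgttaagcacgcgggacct
Hsd17b7: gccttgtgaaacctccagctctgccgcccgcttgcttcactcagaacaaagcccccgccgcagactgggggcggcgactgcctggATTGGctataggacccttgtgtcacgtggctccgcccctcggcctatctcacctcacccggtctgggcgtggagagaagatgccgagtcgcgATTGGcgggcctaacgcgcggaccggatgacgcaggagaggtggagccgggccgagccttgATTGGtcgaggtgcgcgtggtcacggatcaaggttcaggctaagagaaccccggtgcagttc

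Windows were found for 25 of the 32 genes, 33 windows in all, since some genes have several starts; none was matched for Fads1, Fdft1, Fdps, Scd1, Scd2, Sqle and Stard4. Hmgcs1 was the only one whose window held TCACNCCAC, found in 1 of 33 member windows (3.03%) and in 1.24% of the 32851 windows of the RefSeq table. Its match starts 137 bases before the start site. Only this 9-letter string was searched for the sterol element, so other forms of it would be missed. CCAAT was in 21 of the 33 member windows (63.6%) and in 37.4% of all windows. The GC box GGGCGG (both strands) was in 25 of 33 member windows (75.8%) and in 35.7% of all windows. CCAAT and TCACNCCAC overlapped nowhere in the windows shown. Matches of letters are a description and show no binding.

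The 38 mRNA libraries held 11163263 to 68655350 counts and the 39 small RNA libraries 4653364 to 17994498. A further mRNA column, control 0 h replicate b, correlated at most at 0.1885 (log2(count + 1) over genes) with any other and was left out, so control at 0 h has 2 libraries and every other group 3. Replicates stand in the order a/b/c (a/c at 0 h of control). Levels are given as CPM (counts relative to the TMM-scaled library size), and differences as log2 fold changes ± standard error from edgeR's quasi-likelihood fit. A gene rose or fell where its Benjamini-Hochberg adjusted p over all 18857 genes tested was under 0.05. All 32 genes passed the low-count filter, and the least covered, Idi1, had 10 to 108 counts per library.

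Cartilage markers were abundant: 8 chondrocyte markers, among them Col2a1 and Acan, together took 79700 to 105000 CPM in controls at 72 h. Fibroblast markers were abundant too, with medians from 191 CPM (Pdgfra) to 6600 (Col3a1). Of the adipocyte markers Fabp4 ran from 177 to 714 CPM and Plin4 from 48.9 to 117, while Adipoq reached 9.74. Of 8 leukocyte markers Ptprc, Itgam and Tyrobp lay below 1 CPM in every library, as did Alb and Apoa1 of the hepatocyte markers. The other leukocyte markers reached 1.11 (Adgre1), 3.89 (Csf1r), 26 (Lyz2), 35.2 (Cd14) and 54.4 CPM (Cd68). Of the 6 pluripotency markers Pou5f1, Zfp42, Dppa5a and Lin28a had a median of 0 CPM, Nanog one of 0.0682, and Sox2 ran from 1.53 to 3.13 CPM. A set of 7 predicted genes (among them Gm10800 and Gm10801) parted the libraries, summing to 1.29 to 7.8 CPM in the 8 libraries from control at 0 h, control at 4 h or IL-1beta at 4 h, and to 472 to 2620 CPM in the other 30. These genes were chosen after their values were seen. The TNF-alpha group at 4 h and its control fall on opposite sides, so that comparison is given also against control at 12 h. The added comparison differs in time of collection too, so time and treatment cannot be told apart in it.

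Per length of the gene model, in controls at 12 h, the desaturase gene Scd2 stood highest at 185 ± 7.85 CPM per kb (SD, n = 3), followed by Scd1 at 82.1 ± 14.9. Srebf1 at 62.3 ± 4.68 and Insig1 at 54 ± 2.67 CPM per kb came next, while Srebf2 was at 17.6 ± 0.597. Of the sterol enzymes Cyp51 was highest at 27.5 ± 0.413 and the isomerase gene Idi1 lowest at 0.328 ± 0.0619 CPM per kb. Scd1 and Scd2 are neighbouring paralogs on chromosome 19, as are Fads1 and Fads2, and how reads shared by paralogs were counted is not stated in the sources used here. The same holds for strand: the RefSeq spans of Srebf1, Acaca, Fdft1 and Tm7sf2 overlap other protein-coding genes (Rai1, Tada2a, Ctsb and Vps51 among them), and reads from such neighbours cannot be told apart in these counts.

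**Figure D1:**
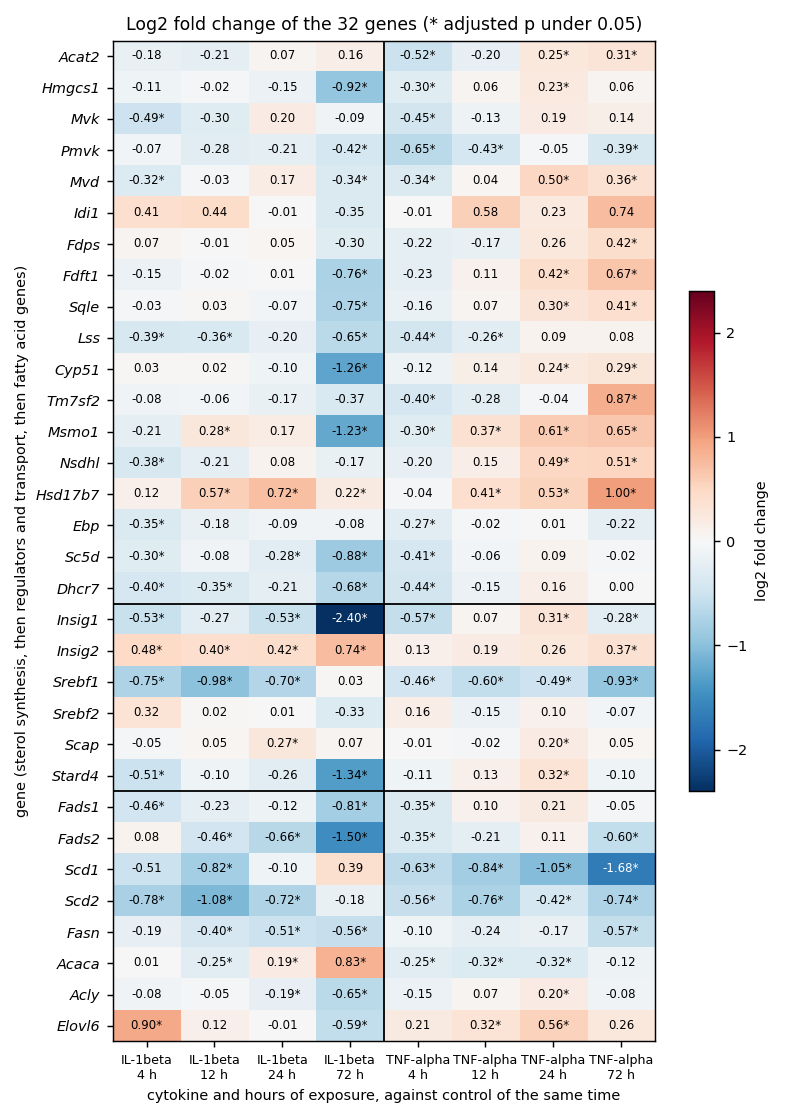
Log2 fold changes of the 32 genes (rows, by role) for each cytokine against the control of the same time (columns), coloured from negative (blue) to positive (red), with asterisks at adjusted p under 0.05. Insig1 at 72 h of IL-1beta is the lowest cell at -2.40 and Hsd17b7 at 72 h of TNF-alpha the highest at 1.00.

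After 72 h more sterol enzymes fell than rose with IL-1beta, and more rose than fell with TNF-alpha. With IL-1beta 10 of the 18 fell and 1 rose, with a median log2 fold change of -0.39; with TNF-alpha 10 rose and 1 fell, with a median of 0.33. The medians of all genes tested were 0.00 and -0.01. Of all 32 genes 3 rose and 17 fell with IL-1beta, when 19.3% and 19.7% of all genes tested did, and 11 rose and 7 fell with TNF-alpha, when 17.8% and 18.3% of all genes tested did. Scaled by library totals alone, 13 rose and 6 fell with TNF-alpha. Mvd, Fdft1, Sqle, Cyp51 and Msmo1 fell with IL-1beta and rose with TNF-alpha, and no member did the reverse. Both calls of Mvd and the TNF-alpha call of Cyp51 were lost when single libraries were left out, as given below. The share of all genes tested with such opposite calls was not counted. Both comparisons use the same 3 control libraries.

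**Figure D2:**
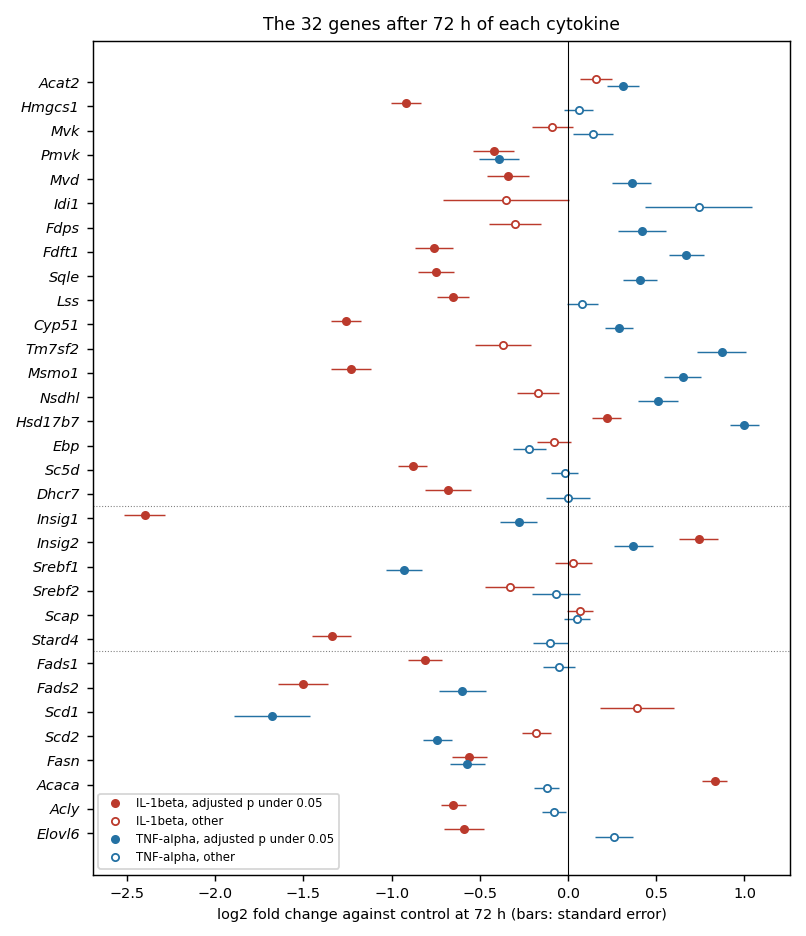
Log2 fold changes (x axis, bars are standard errors) of the 32 genes (y axis) after 72 h of IL-1beta (red) or TNF-alpha (blue) against the same controls, with filled points at adjusted p under 0.05. Most sterol enzymes in the upper block lie left of 0 with IL-1beta and right of 0 with TNF-alpha, and Scd1 lies at -1.68 with TNF-alpha and 0.39 with IL-1beta.

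Markers of cell types moved at 72 h beside these counts. Summed over 8 chondrocyte markers the level was 79700 to 105000 CPM in controls, 16800 to 18100 with IL-1beta, where all 8 fell, and 36700 to 43400 with TNF-alpha, where 7 fell. The 5 fibroblast markers summed to 10600 to 12500, 18500 to 19500 and 5840 to 6490 CPM, with 4 up with IL-1beta and 1 up and 2 down with TNF-alpha. The 8 adipocyte markers, of which Fabp4 and Plin4 made up most, summed to 362 to 482, 719 to 745 and 299 to 395 CPM. Of these 8, 3 rose and 1 fell with IL-1beta and 6 fell with TNF-alpha, with Lep under 1 CPM in every library and Adipoq under 10. The 8 leukocyte markers, chiefly Cd68, Cd14 and Lyz2, summed to 33.8 to 36.9, 48.8 to 55.5 and 63.4 to 85.5 CPM, and of the 5 tested 2 rose and 1 fell with IL-1beta and 3 rose with TNF-alpha. In bulk tissue fewer cells of a type and less RNA per cell cannot be told apart, and the part of cell makeup in the changes of the 32 genes was not tested.

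Along the pathway, Hmgcs1 encodes the cytosolic synthase that commits acetyl-CoA to the mevalonate route. In controls Hmgcs1 was at 97.3/78.9 CPM at 0 h, 118/118/117 at 4 h, 108/112/110 at 12 h, 99.2/88/94.6 at 24 h, 76.1/89.1/86 at 72 h. With IL-1beta it was at 103/118/108 CPM at 4 h, 95.1/113/117 at 12 h, 84.5/81.1/87.7 at 24 h, 39.4/48.2/45.1 at 72 h. With TNF-alpha it was at 92.1/97.3/98.9 CPM at 4 h, 98.7/123/123 at 12 h, 109/110/110 at 24 h, 87.6/84/90 at 72 h. The 3 libraries of IL-1beta at 72 h were the lowest of all 38, and those of TNF-alpha at 72 h overlapped their controls. Hmgcs1 fell by 0.92 ± 0.08 with IL-1beta at 72 h (1.89-fold, adjusted p = 3.51e-11) and fell at 4 h of TNF-alpha (-0.30 ± 0.08), a call lost against control at 12 h (-0.20 ± 0.08, adjusted p = 0.0801). It rose at 24 h of TNF-alpha (0.23 ± 0.08, adjusted p = 0.0373), a call lost without TNF-alpha 24 h a, b or c or control 24 h b or c at adjusted p 0.0731 to 0.174.

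Of the other mevalonate enzymes, Pmvk and Mvd, the kinase and decarboxylase that follow mevalonate kinase, fell with IL-1beta at 72 h (-0.42 ± 0.12 and -0.34 ± 0.12). The call of Mvd was lost without IL-1beta 72 h b or c or control 72 h c at adjusted p 0.0528 to 0.0645. With TNF-alpha at 72 h Pmvk fell (-0.39 ± 0.11) and Mvd rose (0.36 ± 0.11; call lost without TNF-alpha 72 h a at adjusted p 0.187). Acat2, which joins acetyl-CoA units, rose with TNF-alpha at 72 h (0.31 ± 0.09; call lost without TNF-alpha 72 h a or control 72 h a at adjusted p 0.0548 to 0.0679) and was at 0.16 ± 0.09 with IL-1beta. Mvk, Idi1, Fdps and Ebp did not pass the test with IL-1beta at 72 h, at log2 fold changes of -0.09, -0.35, -0.30 and -0.08.

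Sqle encodes squalene epoxidase, a rate-limiting oxygen-using step. In controls Sqle was at 56.9/47 CPM at 0 h, 86.7/88.4/79.3 at 4 h, 75.3/72.2/72.2 at 12 h, 54.7/49.2/64.5 at 24 h, 39.5/46.2/46.2 at 72 h. IL-1beta libraries held 80.3/88.4/80.5 CPM at 4 h, 62.5/78.6/82.7 at 12 h, 55.4/48.5/56.4 at 24 h, 26.4/25.4/26.3 at 72 h. TNF-alpha libraries held 75.2/82.3/69.8 CPM at 4 h, 68.5/85.2/77.5 at 12 h, 72.7/68.8/66.5 at 24 h, 62.5/54.9/58.4 at 72 h. At 72 h the IL-1beta libraries all lay below the controls and the TNF-alpha libraries all above them. Sqle fell with IL-1beta (-0.75 ± 0.10, adjusted p = 1.37e-07) and rose with TNF-alpha (0.41 ± 0.10, adjusted p = 0.000784) at that time, and rose with TNF-alpha at 24 h (0.30 ± 0.09), a call lost without TNF-alpha 24 h a or control 24 h a or b at adjusted p 0.0582 to 0.143. Squalene synthase, Fdft1, which makes the substrate of Sqle, was at 22.2, 26 and 21.7 CPM in controls, 12.8, 14.8 and 13.6 with IL-1beta and 39.8, 37.4 and 34.5 with TNF-alpha at 72 h, again with no overlap, and fell by 0.76 ± 0.11 and rose by 0.67 ± 0.10. Lanosterol synthase, Lss, fell with IL-1beta (-0.65 ± 0.09) and was at 0.08 ± 0.09 with TNF-alpha.

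Among the sterol enzymes Cyp51 and Msmo1, which work on the way from lanosterol to cholesterol, fell most with IL-1beta. Cyp51, the lanosterol demethylase, was at 71.2, 79.6 and 86.5 CPM in controls at 72 h, 32.9, 32.9 and 33.5 with IL-1beta and 103, 88.3 and 99.7 with TNF-alpha. Msmo1, a methylsterol oxidase, was at 46.3, 57.3 and 61.2 CPM in controls, 24, 23 and 23.4 with IL-1beta and 92.3, 82.7 and 84 with TNF-alpha. For both, the 3 groups at 72 h did not overlap. Cyp51 fell by 1.26 ± 0.09 (2.39-fold) and Msmo1 by 1.23 ± 0.11 (2.34-fold) with IL-1beta. With TNF-alpha Msmo1 rose by 0.65 ± 0.10 and Cyp51 by 0.29 ± 0.08, the latter a call lost without control 72 h a at adjusted p 0.0535. Sc5d and Dhcr7, 2 late enzymes, fell with IL-1beta (-0.88 ± 0.08 and -0.68 ± 0.13) and were at -0.02 ± 0.08 and 0.00 ± 0.12 with TNF-alpha.

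Tm7sf2, a sterol reductase at the step after Cyp51, was at 4.11, 4.23 and 4.77 CPM in controls at 72 h and 8.24, 8.01 and 7.71 with TNF-alpha, where it rose (0.87 ± 0.14, adjusted p = 5.33e-06). With IL-1beta it was at 4.34, 2.73 and 3.17 CPM (-0.37 ± 0.16, adjusted p = 0.0626), which overlapped the controls. Nsdhl, of the same demethylation complex as Msmo1, rose with TNF-alpha (0.51 ± 0.11) and was at -0.17 ± 0.12 with IL-1beta.

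Hsd17b7, the keto-reductase of that complex, rose in 6 of the 8 comparisons with control, the most of any of the 32 genes. In controls Hsd17b7 was at 30.5/28.5 CPM at 0 h, 52.8/49.2/48.1 at 4 h, 41/40.8/38.3 at 12 h, 34.9/29.5/29.4 at 24 h, 22.5/25/27.3 at 72 h. The levels with IL-1beta were 51.2/58.9/52.8 CPM at 4 h, 52.6/61.6/63.5 at 12 h, 52.4/51.2/50.5 at 24 h, 28.2/29.5/29.1 at 72 h. The levels with TNF-alpha were 48.4/52/45.3 CPM at 4 h, 50.3/54.8/54.8 at 12 h, 45.8/43.1/47.1 at 24 h, 55/46.7/47.3 at 72 h. From 12 h on every library of either cytokine lay above the controls of its time. With IL-1beta it rose at 12 h (0.57 ± 0.08), 24 h (0.72 ± 0.08) and 72 h (0.22 ± 0.08), the last a call lost without IL-1beta 72 h b or c or control 72 h a or b at adjusted p 0.0701 to 0.216. With TNF-alpha it rose at 12 h (0.41 ± 0.08), 24 h (0.53 ± 0.08) and 72 h (1.00 ± 0.08, 1.99-fold, adjusted p = 2.7e-12), the highest of its 8 values. This is the only sterol enzyme of the 18 that rose with IL-1beta at 72 h.

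**Figure D3:**
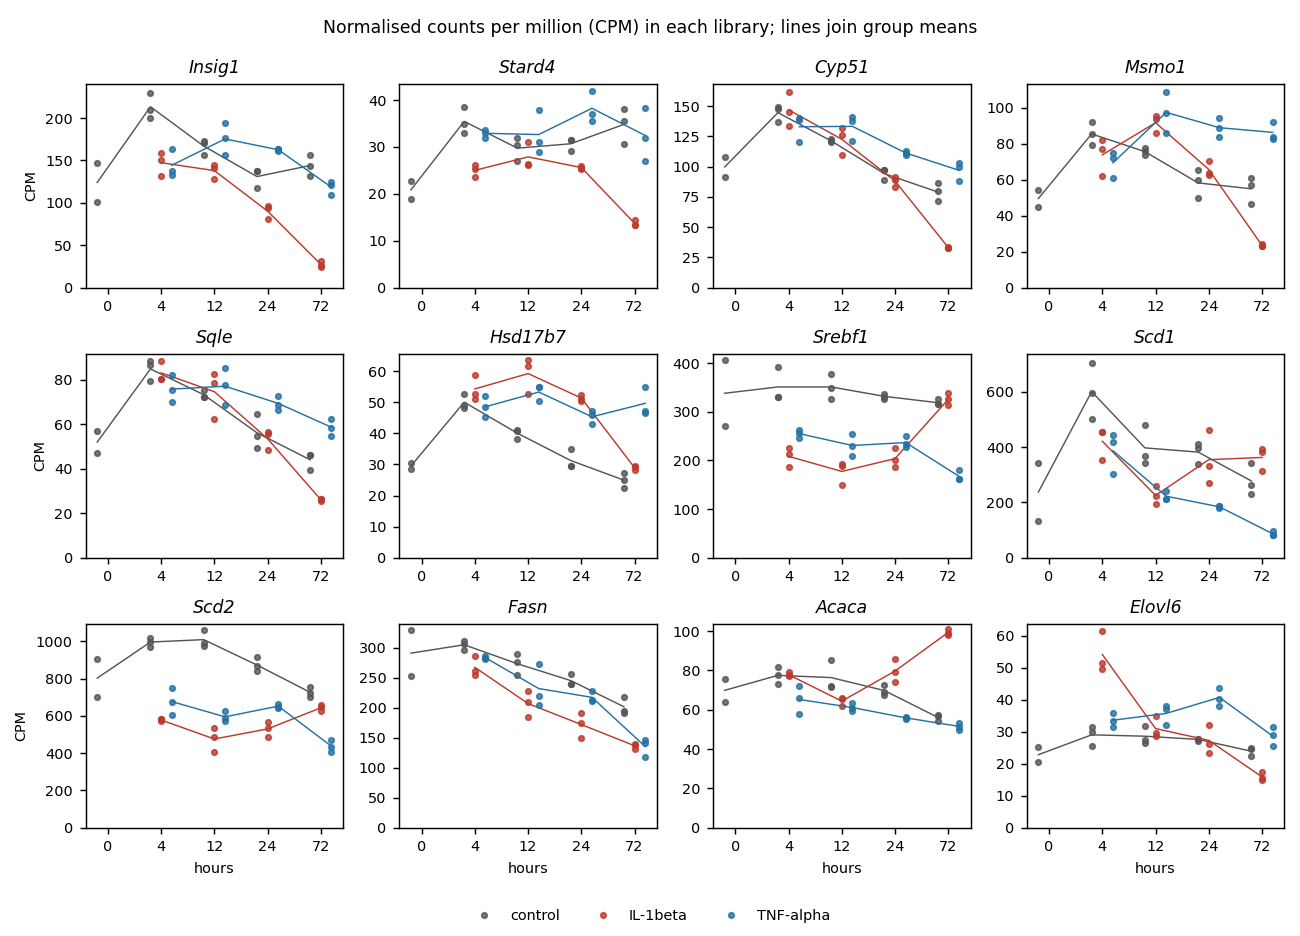
CPM (y axis, from 0) in every library of 12 of the genes at 0, 4, 12, 24 and 72 h (x axis, evenly spaced), in control (grey), IL-1beta (red) and TNF-alpha (blue), with lines through group means. Insig1, Stard4, Cyp51, Msmo1 and Sqle are low with IL-1beta at 72 h, when Srebf1, Scd1 and Scd2 lie at or near control with IL-1beta and below it with TNF-alpha.

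Among the regulators, Insig1, the feedback protein that holds SCAP and is itself a target of SREBP, changed most. In controls Insig1 was at 147/101 CPM at 0 h, 230/210/200 at 4 h, 157/171/173 at 12 h, 137/118/138 at 24 h, 132/144/156 at 72 h. Under IL-1beta the libraries stood at 132/159/151 CPM at 4 h, 128/141/145 at 12 h, 95.8/81.5/93.4 at 24 h, 26.6/24.1/31.2 at 72 h. Under TNF-alpha the libraries stood at 137/163/133 CPM at 4 h, 156/176/194 at 12 h, 164/163/161 at 24 h, 121/109/125 at 72 h. The 3 libraries of IL-1beta at 72 h, at 24.1 to 31.2 CPM, lay below all the others, and the next lowest were those of IL-1beta at 24 h. Insig1 fell with IL-1beta at 4 h (-0.53 ± 0.10), 24 h (-0.53 ± 0.11) and 72 h (-2.40 ± 0.12, 5.27-fold, adjusted p = 1.54e-18). With TNF-alpha it fell at 4 h (-0.57 ± 0.10), rose at 24 h (0.31 ± 0.10) and fell at 72 h (-0.28 ± 0.10). All 3 of these calls were lost in some fits: that at 4 h against control at 12 h in place of 4 h (-0.21 ± 0.11, adjusted p = 0.146), that at 24 h without TNF-alpha 24 h a, b or c or control 24 h b at adjusted p 0.0516 to 0.154, and that at 72 h without TNF-alpha 72 h a or b or control 72 h b or c at adjusted p 0.0507 to 0.15.

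Insig2, its paralog with the same role but not a classical SREBP target, rose where Insig1 fell with IL-1beta. In controls Insig2 was at 33.9/36 CPM at 0 h, 31.4/31.2/28.5 at 4 h, 27.8/26.3/29 at 12 h, 34.6/28/30.4 at 24 h, 31.7/29.8/32.1 at 72 h. Exposure to IL-1beta gave 44.3/39.9/43.1 CPM at 4 h, 36.3/41/32.5 at 12 h, 40/42.6/41.4 at 24 h, 53.5/52.9/49.6 at 72 h. Exposure to TNF-alpha gave 34.6/30.7/34.2 CPM at 4 h, 32.5/27.7/34.6 at 12 h, 37.3/33.9/40.4 at 24 h, 52.4/36.3/32.3 at 72 h. With IL-1beta every library lay above the controls of its time, and with TNF-alpha this was so at 72 h. Insig2 rose with IL-1beta at 4 h (0.48 ± 0.11), 12 h (0.40 ± 0.12), 24 h (0.42 ± 0.11) and 72 h (0.74 ± 0.11, adjusted p = 1.13e-06), and with TNF-alpha at 72 h (0.37 ± 0.11). The call at 12 h was lost without IL-1beta 12 h b at adjusted p 0.0783 and that with TNF-alpha without TNF-alpha 72 h a at adjusted p 0.27, a library at 52.4 CPM beside 36.3 and 32.3 in the others.

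Stard4 carries cholesterol between membranes and is a known sterol-responsive gene. In controls Stard4 was at 22.8/18.9 CPM at 0 h, 38.6/34.8/32.9 at 4 h, 31.9/30.4/26.9 at 12 h, 31.4/29.2/31.4 at 24 h, 30.7/38.1/35.6 at 72 h. With IL-1beta it was at 23.6/25.2/26.2 CPM at 4 h, 26.2/26.4/31 at 12 h, 26/25.2/25.6 at 24 h, 13.3/13.3/14.5 at 72 h. With TNF-alpha it was at 33/32/33.7 CPM at 4 h, 29/31.1/37.8 at 12 h, 35.6/42/37.1 at 24 h, 38.3/32/27 at 72 h. The IL-1beta libraries at 72 h, at 13.3 to 14.5 CPM, were the lowest of the 38. Stard4 fell with IL-1beta at 4 h (-0.51 ± 0.10) and 72 h (-1.34 ± 0.11, 2.53-fold, adjusted p = 1.7e-12). It rose with TNF-alpha at 24 h (0.32 ± 0.10), a call lost without TNF-alpha 24 h b or control 24 h b at adjusted p 0.0792 to 0.113.

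Srebf1 had a time course unlike that of the sterol enzymes. In controls Srebf1 was at 406/270 CPM at 0 h, 392/331/330 at 4 h, 326/349/378 at 12 h, 331/337/327 at 24 h, 326/315/315 at 72 h. IL-1beta libraries held 226/213/186 CPM at 4 h, 150/189/193 at 12 h, 225/186/200 at 24 h, 338/313/326 at 72 h. TNF-alpha libraries held 246/262/257 CPM at 4 h, 230/254/208 at 12 h, 233/250/227 at 24 h, 161/180/161 at 72 h. With IL-1beta all libraries at 4, 12 and 24 h lay below their controls, and at 72 h the groups overlapped; with TNF-alpha all 12 libraries lay below the controls of their time. Srebf1 fell with IL-1beta at 4 h (-0.75 ± 0.10), 12 h (-0.98 ± 0.10) and 24 h (-0.70 ± 0.10) and was at 0.03 ± 0.10 at 72 h. With TNF-alpha it fell at 4 h (-0.46 ± 0.10), 12 h (-0.60 ± 0.10), 24 h (-0.49 ± 0.10) and 72 h (-0.93 ± 0.10, 1.9-fold, adjusted p = 4.75e-09).

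Srebf2, the gene of SREBP2, passed the test in none of the 8 comparisons. In controls Srebf2 was at 71.9/62.6 CPM at 0 h, 70.6/80.9/83.5 at 4 h, 87.6/84.6/90.5 at 12 h, 57.7/61.3/55.1 at 24 h, 37.7/48.7/52.6 at 72 h. The levels with IL-1beta were 101/98/93.3 CPM at 4 h, 81/87.8/96.6 at 12 h, 67.3/42.9/64.2 at 24 h, 37/36.7/36.4 at 72 h. The levels with TNF-alpha were 85.6/90.7/85.7 CPM at 4 h, 69.7/98.3/69.2 at 12 h, 63.5/63.9/58.7 at 24 h, 33.8/47/51.2 at 72 h. Its log2 fold changes ran from -0.33 ± 0.14 (IL-1beta at 72 h, adjusted p = 0.0549) to 0.32 ± 0.13 (IL-1beta at 4 h, adjusted p = 0.058), and in both of these the groups did not overlap. In controls it fell from 12 h to 72 h (-0.92 ± 0.14, adjusted p = 1.77e-06), the largest fall of the 32 genes there.

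Scap, the escort that carries SREBP out of the endoplasmic reticulum, was the steadiest of the regulators. In controls Scap was at 67/59.9 CPM at 0 h, 62.3/61.3/63.7 at 4 h, 64.3/64/66.8 at 12 h, 51.5/58.3/48.4 at 24 h, 53.7/53.8/54.8 at 72 h. Under IL-1beta the libraries stood at 67/61.4/52.5 CPM at 4 h, 62.6/69.4/70.2 at 12 h, 66/59/65.2 at 24 h, 58.9/55/55.9 at 72 h. Under TNF-alpha the libraries stood at 62.1/60.1/63.6 CPM at 4 h, 63.6/68.9/59.5 at 12 h, 62.6/61.7/57.7 at 24 h, 52.5/57.2/58.7 at 72 h. The levels ran from 48.4 to 70.2 CPM over the 38 libraries. Scap rose at 24 h with IL-1beta (0.27 ± 0.07) and with TNF-alpha (0.20 ± 0.07), the second a call lost without TNF-alpha 24 h a or b or control 24 h a or c at adjusted p 0.0984 to 0.213.

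Of the 8 fatty acid genes 1 rose and 5 fell at 72 h of IL-1beta (median -0.57), and 0 rose and 4 fell at 72 h of TNF-alpha (median -0.35), beside 19.3% and 19.7% of all genes tested with IL-1beta and 17.8% and 18.3% with TNF-alpha. Scd1 and Scd2 encode stearoyl-CoA desaturases, which make monounsaturated fatty acids. In controls Scd1 was at 344/131 CPM at 0 h, 706/501/596 at 4 h, 480/368/344 at 12 h, 411/338/397 at 24 h, 341/229/263 at 72 h. Exposure to IL-1beta gave 354/455/455 CPM at 4 h, 195/222/258 at 12 h, 462/272/330 at 24 h, 383/313/392 at 72 h. Exposure to TNF-alpha gave 443/417/302 CPM at 4 h, 242/211/214 at 12 h, 187/179/186 at 24 h, 83.1/82.2/94.8 at 72 h. The TNF-alpha libraries at 72 h were the lowest of the 38, and the 2 controls at 0 h stood at 344 and 131. Scd1 fell with TNF-alpha at all 4 times, by log2 fold changes of -0.63 ± 0.21, -0.84 ± 0.21, -1.05 ± 0.21 and -1.68 ± 0.22 (3.2-fold, adjusted p = 8.29e-08), with the call at 4 h lost without TNF-alpha 4 h c or control 4 h a at adjusted p 0.146 to 0.157, and against control at 12 h in place of 4 h (-0.04 ± 0.21, adjusted p = 0.926). With IL-1beta it fell at 12 h only (-0.82 ± 0.21) and was at 0.39 ± 0.21 at 72 h (adjusted p = 0.148).

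In controls Scd2 was at 905/700 CPM at 0 h, 998/1020/970 at 4 h, 1060/976/991 at 12 h, 865/839/914 at 24 h, 725/700/754 at 72 h. With IL-1beta it was at 582/571/581 CPM at 4 h, 408/485/535 at 12 h, 569/487/534 at 24 h, 645/624/661 at 72 h. With TNF-alpha it was at 604/751/675 CPM at 4 h, 586/627/572 at 12 h, 643/648/666 at 24 h, 434/468/408 at 72 h. With either cytokine every library lay below the controls of its time. Scd2 fell with IL-1beta at 4 h (-0.78 ± 0.08), 12 h (-1.08 ± 0.08, 2.12-fold) and 24 h (-0.72 ± 0.08) and was at -0.18 ± 0.08 at 72 h (adjusted p = 0.094). With TNF-alpha it fell at 4 h (-0.56 ± 0.08), 12 h (-0.76 ± 0.08), 24 h (-0.42 ± 0.08) and 72 h (-0.74 ± 0.08).

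Fasn, the synthase that builds palmitate, fell with both cytokines at 72 h. In controls Fasn was at 329/253 CPM at 0 h, 311/297/307 at 4 h, 276/254/290 at 12 h, 239/240/257 at 24 h, 192/195/218 at 72 h. IL-1beta libraries held 286/262/254 CPM at 4 h, 184/209/228 at 12 h, 192/150/174 at 24 h, 140/132/138 at 72 h. TNF-alpha libraries held 281/283/286 CPM at 4 h, 219/273/204 at 12 h, 213/228/211 at 24 h, 118/147/141 at 72 h. At 72 h both cytokine groups lay below the controls and overlapped each other. Fasn fell with IL-1beta at 12 h (-0.40 ± 0.10), 24 h (-0.51 ± 0.10) and 72 h (-0.56 ± 0.10), and with TNF-alpha at 72 h (-0.57 ± 0.10).

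Acly, which supplies cytosolic acetyl-CoA to both pathways, fell at 72 h of IL-1beta. In controls Acly was at 238/178 CPM at 0 h, 300/287/263 at 4 h, 223/215/221 at 12 h, 210/194/210 at 24 h, 193/199/204 at 72 h. The levels with IL-1beta were 261/291/254 CPM at 4 h, 200/218/221 at 12 h, 183/176/179 at 24 h, 129/124/126 at 72 h. The levels with TNF-alpha were 256/260/252 CPM at 4 h, 217/236/241 at 12 h, 228/240/239 at 24 h, 190/184/188 at 72 h. The IL-1beta libraries at 72 h were the lowest of the 38 at 124 to 129 CPM. Acly fell with IL-1beta at 24 h (-0.19 ± 0.07; call lost without IL-1beta 24 h b or c or control 24 h a or c at adjusted p 0.0612 to 0.0956) and 72 h (-0.65 ± 0.07, adjusted p = 8.9e-10), and rose with TNF-alpha at 24 h (0.20 ± 0.07; call lost without TNF-alpha 24 h b or c or control 24 h b at adjusted p 0.0741 to 0.14).

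Acaca encodes acetyl-CoA carboxylase, which makes malonyl-CoA for fatty acid synthesis, and it was the member that rose most with IL-1beta at 72 h. It was at 56.7, 54.3 and 57.5 CPM in controls at 72 h, 98.9, 98.1 and 101 with IL-1beta and 51.4, 49.9 and 53.3 with TNF-alpha. It rose with IL-1beta (0.83 ± 0.07, 1.77-fold, adjusted p = 5.36e-12) and was at -0.12 ± 0.07 with TNF-alpha, and it fell with TNF-alpha at 12 h (-0.32 ± 0.07) and 24 h (-0.32 ± 0.07). Before 72 h of IL-1beta Acaca fell at 12 h and rose at 24 h. The call at 12 h was lost without control 12 h a at adjusted p 0.126. That at 24 h was lost without IL-1beta 24 h a or c or control 24 h a or b. The adjusted p was 0.0621 to 0.193 in those fits. Acaca also fell at 4 h of TNF-alpha, a call lost without TNF-alpha 4 h a at adjusted p 0.119. Fads2, a desaturase of polyunsaturated fatty acids, was at 36.2, 36.9 and 49 CPM in controls at 72 h, 15.4, 13.1 and 14.6 with IL-1beta and 25.1, 25.1 and 30 with TNF-alpha. It fell with IL-1beta (-1.50 ± 0.14, 2.83-fold) and TNF-alpha (-0.60 ± 0.13) at that time. Fads2 fell earlier too, at 24 h of IL-1beta with a group mean of 28 CPM against 44.3 in controls. Its fall at 12 h of IL-1beta was lost without IL-1beta 12 h a at adjusted p 0.0666. Its fall at 4 h of TNF-alpha was lost without TNF-alpha 4 h a or c or control 4 h a, b or c. The adjusted p was 0.0725 to 0.169 in those fits. At 72 h its neighbour Fads1 fell with IL-1beta (-0.81 ± 0.09) and was at -0.05 ± 0.09 with TNF-alpha.

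With IL-1beta fewer of the 32 genes were called before 72 h, and Scd2 and Srebf1 led the falls at 4, 12 and 24 h. At 4 h of IL-1beta 2 rose and 12 fell (median -0.16), when 15.5% and 17.2% of all genes tested did, and 9 were called in all without IL-1beta 4 h a. Scaled by library totals alone, 2 rose and 18 fell. The genes that rose were Elovl6 and Insig2. Of the 8 adipocyte markers 1 rose and 5 fell at that time, with sums of 547 to 784 CPM against 513 to 588 in controls, and 0 of 8 chondrocyte markers were called; their part was not tested. Elovl6, which lengthens palmitate, was at 30, 25.7 and 31.5 CPM in controls at 4 h and 49.6, 61.4 and 51.6 with IL-1beta, and rose by 0.90 ± 0.10 (1.87-fold, adjusted p = 1.13e-08). At 72 h of IL-1beta it fell (-0.59 ± 0.12).

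At 12 h of IL-1beta 3 of the 32 rose and 8 fell (median -0.09), when 14.5% and 15.0% of all genes tested did. At 24 h 4 rose and 7 fell (median -0.09), when 17.0% and 15.6% of all genes tested did. Of the 18 sterol enzymes 2 rose and 2 fell at 12 h, and 1 rose and 1 fell at 24 h. Msmo1 and Hsd17b7 were the enzymes that rose at 12 h, at 0.28 ± 0.10 and 0.57 ± 0.08. The call of Msmo1 was lost without IL-1beta 12 h b or c or control 12 h a, b or c at adjusted p 0.063 to 0.13. All 8 chondrocyte markers fell at 24 h of IL-1beta (sums of 29900 to 33300 CPM against 73300 to 79100). At 12 h 4 of 8 fell (69800 to 102000 against 111000 to 132000). Of 8 adipocyte markers 1 rose and 2 fell at 12 h, and 1 rose at 24 h. Of 5 fibroblast markers 1 rose and 2 fell at 12 h, and 2 rose and 1 fell at 24 h. Of 5 leukocyte markers tested 1 rose at 12 h and 2 at 24 h. Their part was not tested.

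With TNF-alpha at 4 h 0 of the 32 rose and 18 fell (median -0.29), when 10.9% and 10.6% of all genes tested did, and 10 were called without TNF-alpha 4 h c, and with library totals alone 0 rose and 19 fell. Against control at 12 h, whose libraries lie on the same side of the parting by predicted genes, 2 rose and 7 fell (median -0.14), when 13.4% and 12.7% of all genes tested did. This comparison sets 4 h against 12 h, so time and treatment cannot be told apart in it. Srebf1 and Scd2 fell against either control, by log2 fold changes of -0.46 and -0.46 and of -0.56 and -0.57. Pmvk and Scd1, the largest falls against control at 4 h (-0.65 ± 0.11 and -0.63 ± 0.21), were at -0.25 ± 0.12 and -0.04 ± 0.21 against control at 12 h and not called. Hsd17b7 and Acly were at -0.04 and -0.15 against control at 4 h and rose against control at 12 h (0.28 and 0.22). In controls the group means at 4 h and 12 h were 601 and 397 CPM for Scd1 and 28.7 and 21.8 for Pmvk. They were 50 and 40 CPM for Hsd17b7, 283 and 220 for Acly, 351 and 351 for Srebf1 and 996 and 1010 for Scd2. These 4 h and 12 h controls themselves lie on opposite sides of the parting. Depth differed as well, at 29215135 to 50491521 counts per library in control at 4 h and 13631748 to 15427084 with TNF-alpha. Of the 8 adipocyte markers 6 fell with TNF-alpha at 4 h, with sums of 402 to 459 CPM against 513 to 588 in control at 4 h, and of the 8 chondrocyte markers 1 rose. The part of the library parting, of time of collection, of depth and of cell makeup in these calls was not tested.

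At 12 h of TNF-alpha 3 of the 32 rose and 6 fell (median -0.02), when 14.6% and 13.8% of all genes tested did; Scd1 and Scd2 led the falls, and Hsd17b7 and Msmo1 (0.37 ± 0.10; call lost without TNF-alpha 12 h c at adjusted p 0.0661) the rises. At 24 h 14 rose and 4 fell (median 0.21), when 13.2% and 11.9% of all genes tested did. Among these, 9 of the 18 sterol enzymes rose and 0 fell, led by Msmo1 (0.61 ± 0.10), and Elovl6 rose (0.56 ± 0.11). Of the 4 that fell, Srebf1, Scd1, Scd2 and Acaca, 3 are fatty acid genes. Without control 24 h b or without TNF-alpha 24 h b 11 were called in all in each case. Beside these counts 1 of 8 chondrocyte markers rose and 5 fell at 24 h of TNF-alpha (sums of 47900 to 73400 CPM against 73300 to 79100), 6 of 8 adipocyte markers fell (255 to 349 against 344 to 477), 2 of 5 fibroblast markers fell (6500 to 8120 against 13100 to 15000) and 3 of 5 leukocyte markers tested rose (48.5 to 65.1 against 34.4 to 44.7), and their part was not tested. At 12 h of TNF-alpha 1 of 8 chondrocyte markers rose and 3 fell (70800 to 101000 CPM against 111000 to 132000), and 3 of 8 adipocyte markers fell. Of 5 fibroblast markers 1 rose and 2 fell, 2 of 5 leukocyte markers tested rose, and their part was not tested either.

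Set directly against each other, the cytokines were called apart in most of the 32 genes at 72 h. IL-1beta libraries were higher in 5 and lower in 20 of the 32 genes (median -0.71, all genes -0.01), when 19.4% and 20.4% of all genes tested were higher or lower, and 4 and 23 with library totals alone. All 14 sterol enzymes called were lower with IL-1beta, from -1.88 ± 0.11 for Msmo1 and -1.55 ± 0.08 for Cyp51 to -0.68 ± 0.13 for Dhcr7 and -0.68 ± 0.11 for Nsdhl. Insig1 was 4.33-fold lower (-2.11 ± 0.11, adjusted p = 4.01e-17) and Scd1 4.19-fold higher (2.07 ± 0.22, adjusted p = 8.31e-10) with IL-1beta than with TNF-alpha. Srebf1 (0.96 ± 0.10), Scd2 (0.56 ± 0.08) and Acaca (0.95 ± 0.07) were higher too, and Fasn was at 0.01 ± 0.10 (adjusted p = 0.929).

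At 24 h 2 of the 32 were higher and 18 lower with IL-1beta than with TNF-alpha (median -0.31), when 9.31% and 10.8% of all genes tested were; Scd1 (0.95 ± 0.21) and Acaca (0.51 ± 0.07) were the higher ones and Insig1 (-0.85 ± 0.11) the lowest. At 12 h 0 were higher and 4 lower, when 4.70% and 5.88% were; without IL-1beta 12 h a 0 were called and without TNF-alpha 12 h b 1. At 4 h 6 were higher and 1 lower, when 5.71% and 6.66% were, a split that became 4 and 3 when counts were scaled by library totals alone. Elovl6 was the highest (0.69 ± 0.11) and Stard4 the lower one (-0.40 ± 0.11; call lost without IL-1beta 4 h a at adjusted p 0.0618). The 4 h groups lie on opposite sides of the library parting, whose part in these 4 h calls was not tested.

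Whether an effect differed between times was tested on the difference itself. The IL-1beta effect at 72 h was more negative than at 12 h in 13 of the 32 genes and more positive in 5, when 14.1% and 14.1% of all genes tested were. The more negative ones were led by Insig1 (-2.13 ± 0.16), Msmo1 (-1.51 ± 0.15), Cyp51 (-1.27 ± 0.12) and Stard4 (-1.25 ± 0.15). Scd1 (1.20 ± 0.30), Acaca (1.07 ± 0.10), Srebf1 (1.01 ± 0.15) and Scd2 (0.91 ± 0.12) were 4 of the 5 that turned more positive. The TNF-alpha effect at 72 h was more positive than at 12 h in 5 genes and more negative in 0, when 3.64% and 4.90% of all genes tested were, led by Tm7sf2 (1.16 ± 0.20), and 3 were called without control 12 h b, and with library totals alone 7 were more positive and 0 more negative. Between 4 h and 12 h the IL-1beta effect turned more positive in 2 (Msmo1 at 0.49, lost without IL-1beta 12 h b or c or IL-1beta 4 h a or control 12 h a or control 4 h a at adjusted p 0.0519 to 0.104, and Hsd17b7 at 0.44) and more negative in 2 (Elovl6 at -0.79 and Fads2 at -0.54, lost without IL-1beta 12 h a or IL-1beta 4 h b or c or control 12 h a, b or c or control 4 h a, b or c at adjusted p 0.0537 to 0.13), when 6.34% and 6.24% were, and 2 were called without control 4 h a, and 2 when control 12 h a was left out instead; with library totals alone 3 were more positive and 1 more negative.

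In controls many of the genes rose at first and fell later. From 0 h to 4 h 21 of the 32 genes rose and 0 fell (median 0.41, all genes -0.01), when 10.2% and 10.2% of all genes tested did, with 14 of the 18 sterol enzymes among them. The rises were led by Scd1 (1.34 ± 0.24) and Fads2 (1.02 ± 0.15); Msmo1 rose by 0.79 ± 0.12, Insig1 by 0.78 ± 0.12 and Sqle by 0.71 ± 0.11. This comparison rests on 2 libraries at 0 h, and without control 0 h c 11 were called. Depth differed too, at 17886690 and 14938094 counts at 0 h and 29215135 to 50491521 per library at 4 h. From 12 h to 24 h 0 rose and 9 fell (median -0.20), when 10.2% and 11.5% of all genes tested did, and 5 were called without control 24 h b; with library totals alone 0 rose and 4 fell. From 12 h to 72 h 0 rose and 20 fell (median -0.40), when 18.7% and 18.3% of all genes tested did. With library totals alone 1 rose and 16 fell. Those that fell included 13 of the 18 sterol enzymes, among them Sqle (-0.74 ± 0.10), Fdps (-0.71 ± 0.14) and Hsd17b7 (-0.69 ± 0.08), while Insig1 was at -0.21 ± 0.11 and Stard4 at 0.22 ± 0.10, neither called. The fold changes at 72 h above are thus against controls that were themselves lower than at 12 h in 20 of these genes. In controls chondrocyte marker sums were 92900 to 127000 CPM at 0 h and 114000 to 119000 at 4 h. They were 111000 to 132000 CPM at 12 h, 73300 to 79100 at 24 h and 79700 to 105000 at 72 h. Fibroblast sums were 20100 to 22700 CPM at 0 h and 14000 to 15700 at 4 h. These were 16100 to 19700 CPM at 12 h, 13100 to 15000 at 24 h and 10600 to 12500 at 72 h. The part of cell makeup and depth in these calls was not tested.

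Other genes of the same pathways were described from lists of 22 further synthesis genes, 16 genes of LXR response, sterol export, uptake and storage, 5 oxysterol enzymes and 14 genes of fatty acid oxidation. Of the 22 synthesis genes 7 rose and 7 fell with IL-1beta at 72 h (median -0.11), and 8 rose and 4 fell with TNF-alpha (median 0.08). The shares of all genes that rose and fell, against which this and the next lists are to be read, were 19.3% and 19.7% with IL-1beta and 17.8% and 18.3% with TNF-alpha. Tmem97, a sterol-responsive membrane protein, was at 23.4, 23.8 and 25.4 CPM in controls at 72 h, 13.8, 12.7 and 15.8 with IL-1beta and 16.2, 16.7 and 15.6 with TNF-alpha. It fell with both (-0.78 ± 0.10 and -0.58 ± 0.10). Por, the reductase that feeds electrons to Cyp51 and Sqle, rose most with IL-1beta at 12 h (0.80 ± 0.09), and Fads3 rose with TNF-alpha at 72 h (0.61 ± 0.07).

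Of the 16 genes of LXR response and sterol traffic 9 rose and 3 fell with IL-1beta at 72 h (median 0.26), and 5 rose and 5 fell with TNF-alpha (median 0.09), so that the share that fell with IL-1beta was near that of all genes, 19.7%. Abca1, the exporter of cholesterol to lipid-poor particles, was at 312, 241 and 267 CPM in controls at 72 h, 699, 686 and 778 with IL-1beta and 335, 357 and 396 with TNF-alpha, and rose by 1.40 ± 0.10 and 0.41 ± 0.10. Apoe, which binds exported lipid, was at 732, 470 and 423 CPM in controls, 1500, 1540 and 1420 with IL-1beta and 392, 350 and 373 with TNF-alpha at 72 h. It rose with IL-1beta at 72 h (1.46 ± 0.19) after falling at 12 h (-1.35 ± 0.19), and fell with TNF-alpha at all 4 times, from -0.94 ± 0.19 at 4 h to -0.54 ± 0.18 at 72 h. Its call at 24 h was lost without TNF-alpha 24 h b or control 24 h c at adjusted p 0.0749 to 0.116, and that at 72 h without TNF-alpha 72 h b or control 72 h a at adjusted p 0.0695 to 0.308. Vldlr, a lipoprotein receptor, fell with both at 12 h (-2.04 ± 0.10 with IL-1beta and -1.70 ± 0.10 with TNF-alpha), and at 72 h it rose with IL-1beta (0.29 ± 0.09, lost without IL-1beta 72 h c or control 72 h b at adjusted p 0.0598 to 0.0599) and fell with TNF-alpha (-0.70 ± 0.10). Lipa, the lysosomal lipase that frees cholesterol, rose with TNF-alpha at 72 h (0.89 ± 0.10).

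**Figure D4:**
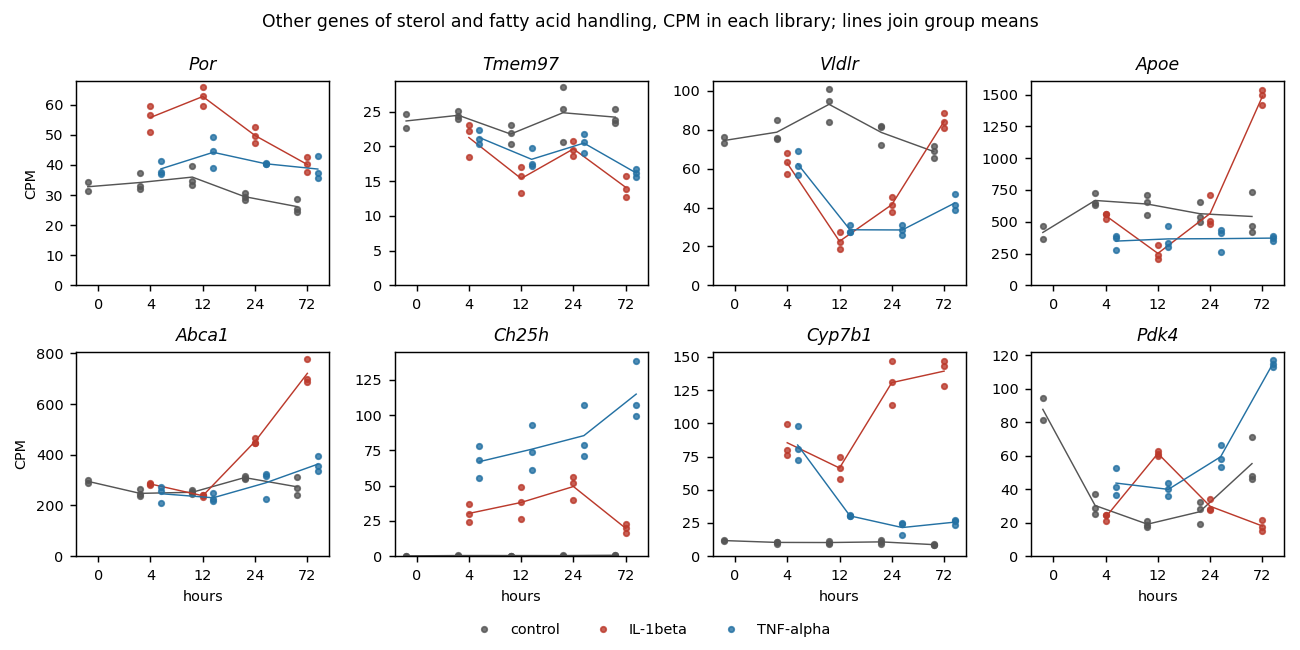
CPM (y axis, from 0) in every library of 8 related genes at 0 to 72 h (x axis, evenly spaced), in control (grey), IL-1beta (red) and TNF-alpha (blue), with lines through group means. Abca1 and Apoe are highest with IL-1beta at 72 h, Pdk4 is highest with TNF-alpha at 72 h, and Ch25h is near 0 in every control.

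Of the 5 oxysterol enzymes 4 passed the low-count filter, without Hsd3b7. Ch25h makes the oxysterol that blocks SREBP release, and Cyp7b1 breaks such oxysterols down. Ch25h was at 0.685, 0.376 and 0.619 CPM in controls at 72 h, 19.7, 16.5 and 22.8 with IL-1beta and 107, 138 and 99.5 with TNF-alpha, and it rose in all 8 comparisons. With IL-1beta its log2 fold changes were 6.43, 6.73, 7.18 and 5.14 ± 0.35 from 4 to 72 h, and with TNF-alpha 7.54, 7.72, 7.98 and 7.69 ± 0.31. At 72 h it was lower with IL-1beta than with TNF-alpha (-2.55 ± 0.19, adjusted p = 1.77e-13). Cyp7b1 was at 7.97, 9.22 and 8.6 CPM in controls at 72 h, 143, 128 and 147 with IL-1beta and 26.1, 26.8 and 23.7 with TNF-alpha, rose in all 8 comparisons, and was higher with IL-1beta than with TNF-alpha at 72 h (2.44 ± 0.13, adjusted p = 1.87e-17). Cyp46a1, with 3 to 38 counts per library, fell at 12 h with both cytokines (-1.48 ± 0.41, lost without IL-1beta 12 h b at adjusted p 0.0515, and -1.39 ± 0.38).

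Of the 14 fatty acid oxidation genes 7 rose and 1 fell with IL-1beta at 72 h (median 0.19), and 7 rose and 1 fell with TNF-alpha (median 0.16). Pdk4, the kinase that spares glucose by shutting pyruvate dehydrogenase, was at 48.1, 71.4 and 46.2 CPM in controls at 72 h, 15.2, 17.1 and 21.5 with IL-1beta and 117, 115 and 113 with TNF-alpha. With IL-1beta it rose at 12 h (1.68 ± 0.17) and fell at 72 h (-1.62 ± 0.17), and with TNF-alpha it rose at 12, 24 and 72 h, to 1.06 ± 0.15 at 72 h. Its rise at 4 h of TNF-alpha (0.52) was lost without TNF-alpha 4 h a or control 4 h b or c at adjusted p 0.0523 to 0.16, and was 1.19 ± 0.17 (adjusted p = 1.37e-06) against control at 12 h. Acadl, a dehydrogenase of the oxidation cycle, rose with IL-1beta at 12 h (0.86 ± 0.08). The regulator Ppara rose at 72 h of IL-1beta (1.07 ± 0.33, lost without IL-1beta 72 h c or control 72 h c at adjusted p 0.0605 to 0.101) and fell at 24 h of TNF-alpha (-0.88 ± 0.33, adjusted p = 0.0496, lost without TNF-alpha 24 h a, b or c or control 24 h a or b at adjusted p 0.0707 to 0.19). Ppargc1a, a coactivator of oxidation genes, rose at 24 h of TNF-alpha (1.72 ± 0.30), and both lay below 10 CPM in every library.

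Srebf2 hosts miR-33, a microRNA known to repress Abca1, and the small RNA libraries, extracted with another kit, gave a second readout at this locus. The RefSeq hairpin lies at chr15:82198122-82198190 (GRCm38.p6, plus strand) inside the span of Srebf2, chr15:82147269-82205379 on the same strand. The mature arms, with the seed (bases 2 to 8) in capitals, are printed from RefSeq.
mmu-miR-33-5p: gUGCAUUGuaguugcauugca
mmu-miR-33-3p: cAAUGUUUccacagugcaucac

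The arm miR-33-5p had 47 to 263 counts per library and miR-33-3p 7 to 101. Of 16 tests (2 arms, 8 comparisons with control) 1 was called, when 0.850%, 2.72%, 3.91% and 13.4% of the 588 miRNAs tested were called at 4, 12, 24 and 72 h of IL-1beta and 0.680%, 1.53%, 4.25% and 29.1% with TNF-alpha. At 72 h miR-33-5p was at 9.68, 9.13 and 6.25 CPM in controls, 6.77, 8.19 and 8.43 with IL-1beta and 10.2, 3.86 and 5.22 with TNF-alpha, all overlapping. Its log2 fold changes were -0.11 ± 0.25 and -0.41 ± 0.26 (adjusted p = 0.894 and 0.234). For miR-33-3p the values were 3.36, 4.52 and 3.82 CPM in controls, 4.92, 3.41 and 4.99 with IL-1beta and 3.81, 0.575 and 1.53 with TNF-alpha, so that TNF-alpha libraries b and c lay below the controls and a among them. This arm fell with TNF-alpha (-1.04 ± 0.38, adjusted p = 0.0378). The call was lost without control 72 h b or c or TNF-alpha 72 h b or c (adjusted p up to 0.379), and without TNF-alpha 72 h a both arms were called. Among the other 15 tests the lowest adjusted p was 0.234.

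**Figure D5:**
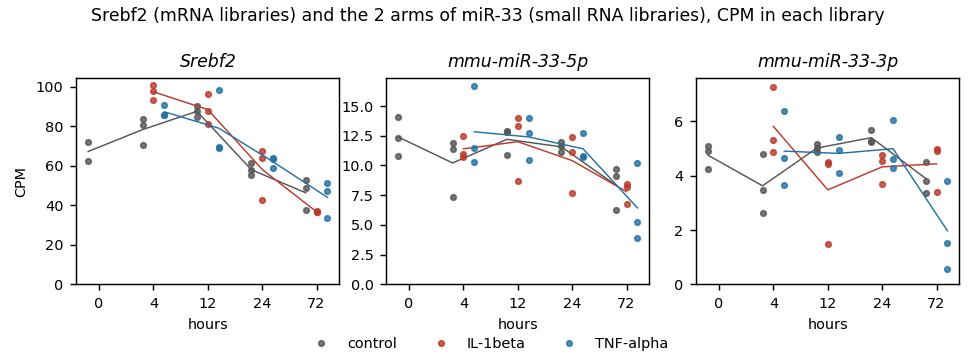
CPM (y axis, from 0) of Srebf2 in the mRNA libraries and of both miR-33 arms in the small RNA libraries at 0 to 72 h (x axis, evenly spaced), in control (grey), IL-1beta (red) and TNF-alpha (blue), with lines through group means. Srebf2 has lower means at 72 h than at 12 h in control and both cytokines, and miR-33-3p reaches 0.575 CPM in a TNF-alpha library at 72 h.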

How the data were processed

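Per the labels' protocols, frozen cartilage was bead-beaten, and its RNA was purified with the mirVana kit (small RNA) or a kit from Norgen (mRNA, then Ribo-Zero Gold). STAR, featureCounts, Trimmomatic and cutadapt, with build mm10, are listed in the submitters' processing notes. Versions, the strand setting and the treatment of multi-mapped reads are not stated in those sources. The deposited tables hold whole-number counts per gene and per mature miRNA; the 2199 nameless lines at the end of the mRNA table were left out.

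Counts were tested with edgeR 4.0.16 (R 4.3.3, limma 3.58.1, with data.table in version 1.17.8): TMM scaling (factors 0.864 to 1.12 for mRNA), filterByExpr by group, 1 quasi-likelihood fit per assay with a coefficient per group, and Benjamini-Hochberg adjustment over all 18857 genes or 588 miRNAs tested. The common biological coefficient of variation was 8.26% for mRNA and 19.3% for miRNA. The fitting functions were tested on simulated data. Summaries were made with pandas 2.3.3 and NumPy 2.4.6 under Python 3.11.15, and figures drawn with matplotlib 3.10.9.

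The 32 genes and all lists were chosen with earlier results of these data known. Named genes are 11 set regulators and enzymes, the 2 members of largest change called per direction in each cytokine comparison, and up to 3 called genes per related list and cytokine; other names were chosen after their values were seen. Alternatives were DESeq2 1.42.0, its size factors in edgeR, library totals, no low-count filter, a replicate block, fits on the libraries compared, all 39 mRNA libraries and leaving out each library; 2 more were added after the data were seen. A result for a related gene is not reported here.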

Additional observations from a re-analysis of the deposited data

Results flagged for a closer look

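The genes below had an effect that differed between 2 times by edgeR's test of the difference (log2 difference of effects ± standard error, adjusted p). The IL-1beta effect was more negative at 72 h than at 12 h in Insig1 (-2.13 ± 0.16, 4.55e-13), Msmo1 (-1.51 ± 0.15, 8.86e-10), Cyp51 (-1.27 ± 0.12, 1.04e-10), Stard4 (-1.25 ± 0.15, 5.83e-08), Fads2 (-1.04 ± 0.20, 7.19e-05), Hmgcs1 (-0.90 ± 0.12, 2e-07), Sc5d (-0.79 ± 0.12, 1.12e-06), Sqle (-0.78 ± 0.14, 3.4e-05), Fdft1 (-0.75 ± 0.15, 0.000141), Elovl6 (-0.70 ± 0.16, 0.000806), Acly (-0.61 ± 0.10, 6.75e-06), Fads1 (-0.58 ± 0.13, 0.00102) and Hsd17b7 (-0.35 ± 0.12, 0.0202). It was more positive at 72 h in Scd1 (1.20 ± 0.30, 0.00185), Acaca (1.07 ± 0.10, 1.64e-10), Srebf1 (1.01 ± 0.15, 1.09e-06), Scd2 (0.91 ± 0.12, 1.53e-07) and Acat2 (0.37 ± 0.13, 0.0315).

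The TNF-alpha effect was more positive at 72 h than at 12 h in Tm7sf2 (1.16 ± 0.20, 0.000182), Fdps (0.59 ± 0.19, 0.0477), Hsd17b7 (0.58 ± 0.11, 0.000571), Fdft1 (0.56 ± 0.14, 0.00799) and Acat2 (0.51 ± 0.13, 0.00993). The IL-1beta effect was more positive at 12 h than at 4 h in Msmo1 (0.49 ± 0.15, 0.0225) and Hsd17b7 (0.44 ± 0.11, 0.00519), and more negative in Elovl6 (-0.79 ± 0.15, 0.000377) and Fads2 (-0.54 ± 0.18, 0.0452). Some calls depended on single libraries. For IL-1beta at 72 h against 12 h that of Acat2 was lost without IL-1beta 12 h a or c or IL-1beta 72 h a or c or control 12 h b or c or control 72 h a at adjusted p 0.0617 to 0.132, and that of Hsd17b7 without IL-1beta 12 h b or control 72 h c at adjusted p 0.0519 to 0.0529. For TNF-alpha that of Acat2 was lost without control 12 h b at adjusted p 0.05, and that of Fdps without TNF-alpha 12 h a or b or TNF-alpha 72 h a, b or c or control 12 h a or b or control 72 h a, b or c at adjusted p 0.0561 to 0.207. For IL-1beta at 12 h against 4 h that of Msmo1 was lost without IL-1beta 12 h b or c or IL-1beta 4 h a or control 12 h a or control 4 h a at adjusted p 0.0519 to 0.104, and that of Fads2 without IL-1beta 12 h a or IL-1beta 4 h b or c or control 12 h a, b or c or control 4 h a, b or c at adjusted p 0.0537 to 0.13.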

How the results depend on the processing

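Of 576 gene results (32 genes, 18 comparisons) the call and direction held in 564 with DESeq2, 571 with its size factors, 538 with library totals, 539 with no filter, 536 on only the libraries compared and 438 with all 39 libraries, and none of these 6 reversed a called direction. With all 39 libraries the counts of called genes were 4 for IL-1beta against control 4 h, 1 for IL-1beta against control 12 h, 2 for IL-1beta against control 24 h, 4 for TNF-alpha against control 4 h, 2 for TNF-alpha against control 12 h, 6 for TNF-alpha against control 24 h, 9 for TNF-alpha against control 72 h, 2 for IL-1beta against TNF-alpha 4 h, 0 for IL-1beta against TNF-alpha 12 h, 7 for IL-1beta against TNF-alpha 24 h, 1 for control 24 h against control 12 h, 10 for control 72 h against control 12 h, 11 for IL-1beta effect 72 h against 12 h, 1 for TNF-alpha effect 72 h against 12 h and 1 for IL-1beta effect 12 h against 4 h; the added column correlated at most at 0.1885 with any other. Other counts that moved by over 1.5 times were 4 for control 24 h against control 12 h with library totals, 0 for IL-1beta against TNF-alpha 12 h and 0 for miR-33 with TNF-alpha at 72 h on only the libraries compared, and 9 for the TNF-alpha effect 72 h against 12 h with no filter; the cause was not tested. Leaving out each library gave 9 to 14 for IL-1beta against control 4 h, 10 to 17 for TNF-alpha against control 4 h, 11 to 16 for TNF-alpha against control 24 h, 0 to 5 for IL-1beta against TNF-alpha 12 h, 11 to 20 for control 4 h against control 0 h, 5 to 9 for control 24 h against control 12 h, 3 to 5 for TNF-alpha effect 72 h against 12 h, 2 to 4 for IL-1beta effect 12 h against 4 h and 0 to 2 for miR-33 TNF-alpha against control 72 h. TNF-alpha at 4 h against control 12 h, chosen after seeing the data, gave 9 called, with Hsd17b7 at 0.28 and Acly at 0.22 reversed in sign. The times of collection differ in it too, and the cause was not tested. Without the 8 libraries from control at 0 h or 4 h or IL-1beta at 4 h, also chosen after seeing the data, 407 of 416 results held. Library totals moved the median of all genes by up to 0.131 and the share of called genes that rose to 28.4% beside 47.4% for IL-1beta against control 4 h, 40.4% beside 50.7% for TNF-alpha against control 4 h, 67.1% beside 49.3% for TNF-alpha against control 72 h, 27.3% beside 46.1% for IL-1beta against TNF-alpha 4 h, 34.9% beside 48.7% for IL-1beta against TNF-alpha 72 h, 77.1% beside 47.2% for control 24 h against control 12 h, 65.4% beside 50.5% for control 72 h against control 12 h, 64.3% beside 42.6% for TNF-alpha effect 72 h against 12 h and 78.7% beside 50.4% for IL-1beta effect 12 h against 4 h. With the replicate letter as a block 572 of 576 held and the counts of called genes ran from 3 (IL-1beta effect 12 h against 4 h) to 25 (IL-1beta against TNF-alpha 72 h). Letters share only a name: deviations of same-letter mRNA libraries correlated at -0.13 to 0.13, and 9 of 38 libraries were closest to one of their own letter. Low counts limit Idi1, Fdps, Tm7sf2 and both miR-33 arms.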
